A study of Saccharomyces cerevisiae with 25 samples.

Results

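Budding yeast (Saccharomyces cerevisiae) was taken out of phosphate, and the transcriptome at 105, 120 and 135 min was set against that at 30, 45 and 60 min to see which genes had gone back towards their starting level and which had stayed where the first response put them. All named genes with a value in at least 2 of the 3 libraries on each side were kept, which gave 5298 of 6648 named genes. Of these, 5001 had a value in all 6 libraries and 5295 also had one at 0 min. Of the 1350 genes left out, 1001 had no value in any of the 6 libraries.

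The cells were BY4741, a haploid laboratory strain of mating type a, of genotype pho84pr-YFP, phm3 damp. The PHO84 promoter drives a yellow fluorescent reporter in it, and PHM3 has a DAmP allele. PHM3 is the older name of VTC4, whose product makes polyphosphate at the vacuole membrane. A DAmP allele alters the end of the transcript and usually lowers its amount. Every library, the one at 0 min included, came from this strain, so nothing here was compared with an unmodified one. The reference library was taken in high phosphate medium at 0 min (n = 1), and each later library in no-phosphate medium, 1 per time point. The 3 libraries of a side are therefore consecutive time points and not repeat cultures, and the p-values measure the scatter along these stretches of the course, which includes real change within a side.

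Yeast senses phosphate through the PHO pathway. When phosphate is plentiful the cyclin-dependent kinase Pho85 with its cyclin Pho80 keeps the transcription factor Pho4 out of the nucleus, and when it runs short the inhibitor Pho81 blocks the kinase and Pho4, with Pho2, switches on transporters, secreted phosphatases and the polyphosphate machinery. A move to a poorer medium also sets off a general stress programme, in which Msn2 and Msn4 induce protective genes through stress response elements (STRE) and Hsf1 induces chaperones, while genes that build ribosomes are turned down together. This stress programme is known to be often transient, whereas the specific response lasts as long as the shortage does.

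VTC4, the gene altered in the strain, was listed at 6.4 log2 RPM (reads per 1000000 reads) at 0 min. It stood at 7.0, 6.95 and 6.84 on the early side and at 6.64, 5.87 and 7.11 on the late side. The 2 sides overlapped, and with no unmodified strain these levels do not test the allele. Recovered depth ran from 1.049 to 4.263 M reads in the 6 libraries and was 4.275 M at 0 min, and a gene is listed in a library only from 10 reads, which is between 1.23 and 3.25 log2 RPM. The 120 min library stood apart: its correlation across genes with 105 and 135 min was 0.962 and 0.949, against 0.976 between those 2. Of 3622 genes with a mean of at least 5 log2 RPM, 113 lay at least 1 log2 unit below the mean of both neighbours at 120 min and 8 as far above. Of these 113 genes, 59 also dropped out in the same way at 75 min. Among the genes called below are 0 of the 113, but such a drop widens the late spread and so makes a call unlikely. The calls may still rest in part on the 120 min library, which was the lowest late library in 26 of the 37 genes called lower. The 7 genes that mark a cells were listed in all 7 libraries, with summed levels of 2608.0 to 2711.7 RPM on the early side and 2618.0 to 3537.4 RPM on the late side. Of 4 genes that BY4741 lacks, HIS3, LEU2 and MET17 were listed in 0 of 7 libraries, but URA3 was listed in 6 of 7, at 2.52 to 3.25 log2 RPM, and where those reads come from was not tested.

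The sequences below hold elements known from promoters of stress, ribosome assembly and PHO genes. Whether these elements control the groups that returned or held was not tested. The sequences were read from the R64 genome on the coding strand of each gene, with matches on either strand in capitals. Upstream of HSP12 (chrVI:106801-107090, + strand) and CTT1 (chrVII:654236-654525, + strand), which were lower late than early, the capitals mark the STRE core AGGGG or its complement.
HSP12: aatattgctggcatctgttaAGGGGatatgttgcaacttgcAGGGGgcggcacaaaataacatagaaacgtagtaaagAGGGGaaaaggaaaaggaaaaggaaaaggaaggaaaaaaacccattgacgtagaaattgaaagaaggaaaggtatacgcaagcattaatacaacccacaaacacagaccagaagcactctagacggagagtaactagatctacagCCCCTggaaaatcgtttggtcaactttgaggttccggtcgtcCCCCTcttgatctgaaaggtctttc
CTT1: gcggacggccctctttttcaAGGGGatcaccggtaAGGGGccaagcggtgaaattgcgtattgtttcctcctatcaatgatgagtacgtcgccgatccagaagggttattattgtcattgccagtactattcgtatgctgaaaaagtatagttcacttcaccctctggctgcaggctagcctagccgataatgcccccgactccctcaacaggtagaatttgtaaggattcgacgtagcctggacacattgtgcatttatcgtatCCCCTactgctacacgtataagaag
Upstream of NSR1 (chrVII:807801-807863, - strand) and ERB1 (chrXIII:370598-370655, - strand), 2 genes of ribosome assembly, the capitals mark the PAC element (GATGAG) and the RRPE element (AAAATTTT), which are known from promoters of this class.
NSR1: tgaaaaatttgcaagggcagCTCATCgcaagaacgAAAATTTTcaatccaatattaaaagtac
ERB1: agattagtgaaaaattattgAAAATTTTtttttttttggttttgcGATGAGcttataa
Upstream of PHO84 (chrXIII:26037-26256, - strand) and SPL2 (chrVIII:375181-375267, - strand), which held, the capitals mark the Pho4 boxes CACGTG and CACGTT.
PHO84: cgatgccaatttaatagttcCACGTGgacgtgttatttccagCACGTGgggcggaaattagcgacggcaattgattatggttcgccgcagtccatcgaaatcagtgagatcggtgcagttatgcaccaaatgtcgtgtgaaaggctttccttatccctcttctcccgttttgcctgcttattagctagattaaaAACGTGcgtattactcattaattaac
SPL2: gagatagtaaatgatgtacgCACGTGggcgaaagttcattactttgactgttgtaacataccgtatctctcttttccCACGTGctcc
The HSP12 window holds 5 STRE matches and the CTT1 window 3. The PHO84 window holds 3 Pho4 boxes. The SPL2 window holds 2 of the 4 boxes in its 500 upstream bases.

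Against 30-60 min, 40 genes had a different level at 105-135 min, and 37 of them stood high early and low late. In limma on log2 RPM, with Benjamini-Hochberg adjusted p under 0.05 over all 5298 genes and a log2 difference of at least 1, 37 genes fell (0.698%) and 3 rose (0.0566%). Without the fold threshold 50 genes passed, and 1075 had an unadjusted p under 0.05. The 3 late libraries all lay below the 3 early ones in 978 genes (18.5%) and all above them in 510 genes (9.63%). All 37 genes that fell had been above the 0 min library at 30-60 min, as had 3297 of 5295 genes, and 32 of the 37 by at least 1 log2 unit. At 105-135 min 27 of the 37 were within 0.5 of the 0 min library, a smaller share than the 90.3% of all genes. The same early and late libraries had picked the 37. In bulk RNA, fewer cells of a state and less RNA per cell cannot be told apart. The number of calls rests on single libraries. Without the 30, 45, 60 or 105 min library no gene passed in limma, although 949, 609, 826 and 939 genes then had an unadjusted p under 0.05. Without 120 min 30 genes passed, 26 of them among the 40, and without 135 min 181 genes passed.

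HSP12, a small heat shock protein that protects membranes and a standard reporter of Msn2 and Msn4 activity, gave the clearest course among the abundant stress genes. Its level was 8.72 log2 RPM at 0 min. It was 10.84, 11.50 and 11.72 at 30, 45 and 60 min, and 9.77, 8.87 and 9.83 at 105, 120 and 135 min. The sides did not overlap, and the 120 min library was nearly back at the 0 min level. The late mean was still 0.77 ± 0.44 (SE) above 0 min, which is partly returned by the limits given below. Without the 120 min library the late mean was 1.08 above 0 min, which would count as held. HSP12 (chromosome VI, 107256 to 107585) was thus 3.64-fold lower late than early (log2 difference -1.87 ± 0.31, SE, 95% interval -2.57 to -1.16, limma adjusted p = 0.0427, n = 3 against 3), and -1.55 without the 120 min library. CTT1, the cytosolic catalase that breaks down hydrogen peroxide, stood at 3.52 log2 RPM at 0 min. It reached 5.09, 5.5 and 5.6 on the early side and was at 3.75, 3.97 and 3.63 on the late side. The late values lay close together just above the 0 min value. CTT1 (chromosome VII, 654634 to 656322) fell by 1.61 on the log2 scale (SE 0.19, limma adjusted p = 0.0229). The GPI-anchored wall protein gene SPI1 was the other member of the general stress list to fall, by 1.29 ± 0.21 (SE, limma adjusted p = 0.041).

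The other members of the general stress list mostly lay in the same direction without passing. Of 45 members tested, 3 fell and 0 rose, while 0.698% of all genes fell. In 31 the unadjusted p was under 0.05 with a lower late level, against 683 of 5298 genes. In 25 the late libraries all lay below the early ones, against 18.5% of all genes. The median difference of the list was -0.83 log2, against -0.08 over all genes tested, and -0.65 without the 120 min library. TMA10 and ALD4 show members that missed the threshold. TMA10, whose product is found on ribosomes under stress, had a mean of 6.38 ± 0.44 log2 RPM (SD, n = 3) early and 4.26 ± 0.88 late (log2 difference -2.11 ± 0.41, SE, limma adjusted p = 0.0536). ALD4, the main mitochondrial aldehyde dehydrogenase, had 8.67 ± 0.46 and 7.13 ± 0.45 (log2 difference -1.54 ± 0.29, SE, limma adjusted p = 0.0536). HSP26, another small heat shock protein of the list, had a mean of 7.19 ± 0.17 log2 RPM early and 7.14 ± 0.30 late, a log2 difference of -0.05 ± 0.20 (SE). Other fits called more of this list lower, 19 with voom weights on recovered reads and 14 with a spread taken from all 25 libraries. Over all 5298 genes these fits called 120 and 85 lower.

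**Figure D1:**
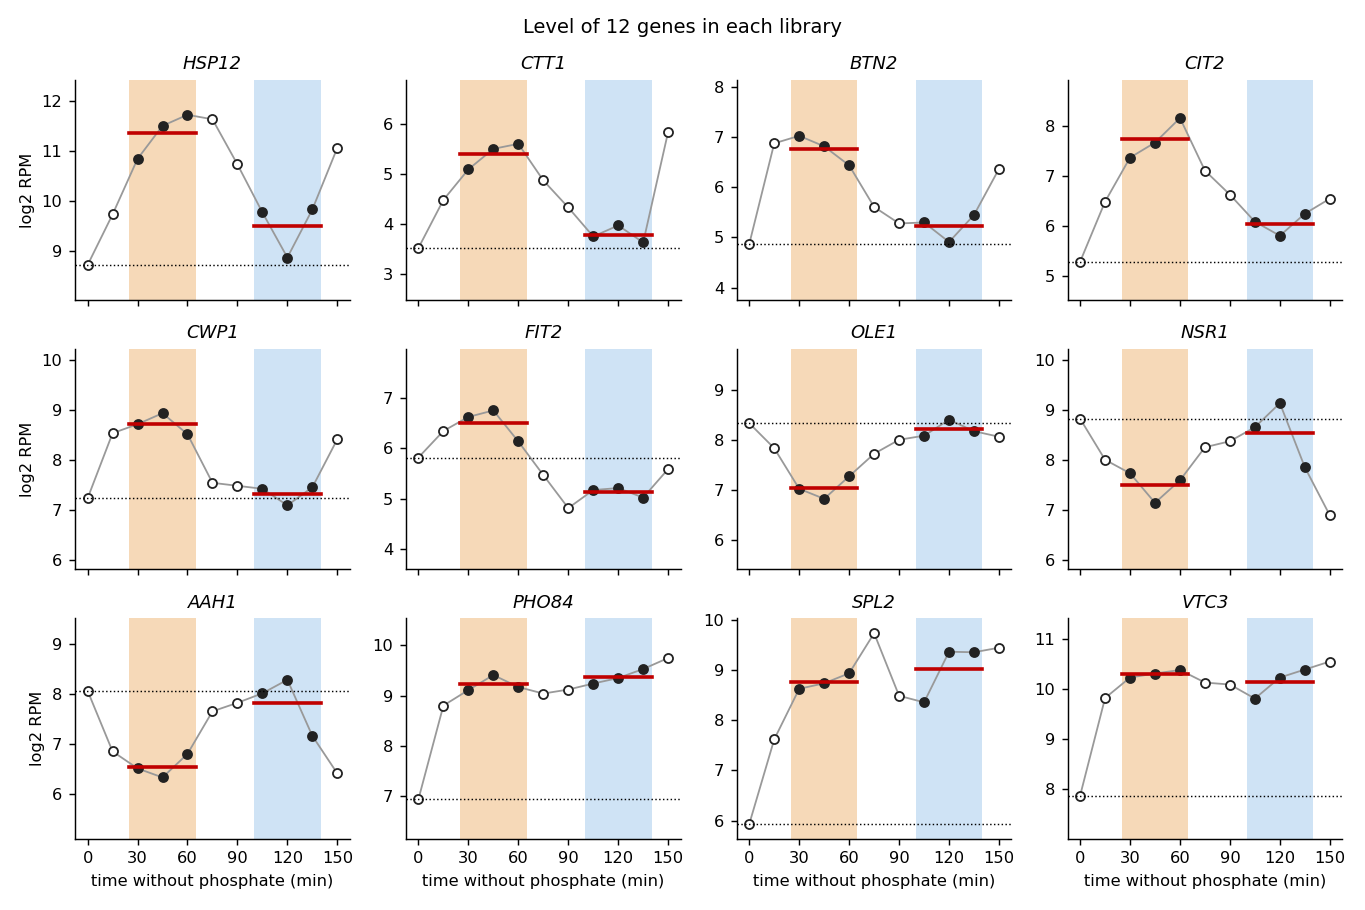
Level of 12 genes (y axis, log2 RPM) against time without phosphate (x axis, min), 1 library per point; filled points are the early (orange band) and late (blue band) libraries, open points the others, red lines the mean of each side and the dotted line the 0 min level. The stress, chaperone, citrate synthase and cell wall genes stand high in the orange band and low in the blue one, OLE1, NSR1 and AAH1 run the other way, and PHO84, SPL2 and VTC3 stay far above the dotted line in both.

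Among the chaperones, a class known to be induced by Hsf1, 4 of 25 tested fell, against 0.698% of all genes, and 0 rose. Whether Hsf1 has a part in this was not tested. A late mean below the early one was found in 25 of 25, against 3139 of 5298 genes. In 22 the late libraries all lay below the early ones, against 18.5% of all genes. The list's median difference was -0.68 log2 and -0.62 without the 120 min library. BTN2, a factor that gathers and helps dissolve misfolded proteins, was at 4.87 log2 RPM at 0 min. It was at 7.03, 6.82 and 6.44 early and at 5.30, 4.91 and 5.45 late. It had already reached 6.88 at 15 min and was within 0.5 of its late mean at 90 min (5.28). BTN2 (chromosome VII, 772454 to 773686) was 2.91-fold lower late than early (log2 difference -1.54 ± 0.21, SE, limma adjusted p = 0.0258). HSP42, the small heat shock protein that organises aggregates, had 6.88, 7.21 and 6.26 log2 RPM early and 5.01, 4.61 and 5.63 late, from 4.52 at 0 min. The late values spread over 1 log2 unit, the highest at 135 min, without reaching the early ones. Its log2 difference was -1.70 ± 0.31 (SE, limma adjusted p = 0.0493). SSA4, the stress-induced Hsp70, fell by 1.29 ± 0.22 (SE, limma adjusted p = 0.0459). HSP82, the induced Hsp90, fell by 1.49 ± 0.27 (SE, limma adjusted p = 0.0493), but whole reads made up only 4.0% of its values. Its reads may be shared with a near-identical copy, which was not tested. HSP42, SSA4 and HSP82 did not pass without the 120 min library, where their limma adjusted p was 0.0773, 0.0703 and 0.0533. HSP104, the disaggregase, had 9.37 ± 0.22 log2 RPM (SD, n = 3) early and 8.12 ± 0.93 late, and its log2 difference of -1.25 ± 0.40 (SE) had a limma adjusted p of 0.137. The mRNA of the regulator HSF1 itself was at 5.76 ± 0.23 early and 5.50 ± 0.22 late (log2 difference -0.26 ± 0.19, SE).

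The storage carbohydrates trehalose and glycogen, which yeast lays down under stress, followed the same course, but 0 of 19 genes passed in limma. Of the 19, 18 had a lower late mean, against 3139 of 5298 genes. An unadjusted p under 0.05 with a lower level was found in 13, against 683 of 5298 genes. In 11 the late libraries all lay below the early ones, against 18.5% of all genes. The median difference was -0.81 log2, and -0.62 without the 120 min library. TSL1, the regulatory subunit of trehalose synthase, was at 6.49, 6.98 and 6.14 log2 RPM early and at 4.86, 3.93 and 5.86 late, from 4.03 at 0 min. The 135 min library alone was close to the early side (log2 difference -1.65 ± 0.44, SE, limma adjusted p = 0.101). PGM2, the phosphoglucomutase that feeds both stores, had a log2 difference of -1.41 ± 0.33 (SE, limma adjusted p = 0.0805). GSY2, the main glycogen synthase, had one of -0.86 ± 0.17 (SE, limma adjusted p = 0.0536). Voom weights on recovered reads called 8 of the 19 lower, against 120 of 5298 genes. In glycolysis, the stress-linked hexose kinases HXK1 and GLK1 had log2 differences of -1.66 ± 0.44 and -1.57 ± 0.43 (SE, limma adjusted p = 0.105 and 0.109), while pyruvate kinase CDC19 had -0.20 ± 0.16. Of the 27 glycolytic genes 0 passed in limma and 8 had an unadjusted p under 0.05, against 1075 of 5298 genes. In 17 the late libraries all lay below the early ones, against 18.5% of all genes. GLK1 overlaps another annotated gene, YCL042W.

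CIT2 and PYC1, on the list of the citrate and glyoxylate cycles, fell, and so did DLD3, PDH1 and GOR1, which are on none of the lists. CIT2, the peroxisomal citrate synthase and a classic target of the retrograde pathway from mitochondria to nucleus, was at 5.29 log2 RPM at 0 min. It was at 7.37, 7.67 and 8.16 early and at 6.09, 5.81 and 6.25 late. All 3 late values stayed above 0 min. CIT2 (chromosome III, 120946 to 122328) was 3.21-fold lower late than early (log2 difference -1.68 ± 0.23, SE, limma adjusted p = 0.0258), and its late mean was 0.76 ± 0.32 above 0 min. DLD3, a cytosolic lactate dehydrogenase and another retrograde target, fell by 1.51 ± 0.27 (SE, limma adjusted p = 0.0493). PYC1, pyruvate carboxylase, was at 8.88, 9.10 and 9.08 log2 RPM early and at 7.67, 7.01 and 7.68 late, from 6.95 at 0 min. Its early values lay close together, and it fell by 1.57 ± 0.21 (SE, limma adjusted p = 0.0258). PDH1, which acts on methylcitrate in propionate breakdown, fell by 1.79 ± 0.24 and GOR1, a glyoxylate reductase, by 1.57 ± 0.24 (SE, limma adjusted p = 0.0258 and 0.0303). The mitochondrial citrate synthase CIT1 had a log2 difference of -1.59 ± 0.34 (SE, limma adjusted p = 0.07) and did not pass. Of the 34 genes of the citrate and glyoxylate cycles and gluconeogenesis 2 fell, CIT2 and PYC1, and the median difference was -0.28 log2. The respiratory chain and ATP synthase, 39 genes, had a median difference of 0.00 with 0 called in limma. An unadjusted p under 0.05 was found in 5 in total, against 1075 of 5298 genes. With voom weights 1 was called lower, against 120 of 5298.

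Single genes of other pathways fell as well, where 0.698% of all genes tested did. CWP1, a mannoprotein of the cell wall, was at 8.71, 8.93 and 8.51 log2 RPM early and at 7.42, 7.09 and 7.45 late, from 7.23 at 0 min. Its late values surrounded the 0 min value, and it fell by 1.40 ± 0.18 (SE, limma adjusted p = 0.0258). It was the 1 gene called among 33 of the cell wall list, whose median difference was -0.09. ISU1, the scaffold on which mitochondria build iron-sulfur clusters, was at 6.71, 6.79 and 7.37 log2 RPM early and at 5.65, 5.88 and 5.6 late, and fell by 1.24 ± 0.21 (SE, limma adjusted p = 0.0427). FIT2, a wall mannoprotein that retains siderophore-bound iron, lay below its starting level on the late side: it was at 5.82 log2 RPM at 0 min, at 6.63, 6.76 and 6.14 early and at 5.17, 5.21 and 5.02 late. The fall was 1.38 ± 0.19 (SE, limma adjusted p = 0.0258), and the late mean was -0.69 ± 0.27 from 0 min, which did not pass. These were the 2 falls among 26 iron genes, whose median difference was -0.29. FET3 and FTR1, the high-affinity iron uptake pair, had log2 differences of 0.00 ± 0.17 and 0.00 ± 0.19 (SE). Their late means of 8.29 and 8.31 log2 RPM lay below their 0 min levels of 8.72 and 8.95. GTT2, a glutathione S-transferase, fell by 1.18 ± 0.20 (SE, limma adjusted p = 0.0427) and, with CTT1, made 2 falls among 28 antioxidant genes. All 28 had a lower late mean (median difference -0.49), against 3139 of 5298 genes. GTT2 did not pass without the 120 min library (limma adjusted p = 0.0522). MET6, methionine synthase, fell by 1.09 ± 0.19 (SE, limma adjusted p = 0.0471), the 1 call among 31 sulfur genes, whose median difference was -0.46, and did not pass without the 120 min library (limma adjusted p = 0.068). SOL1, a homologue of the lactonase of the pentose phosphate pathway, fell by 1.21 ± 0.18 (SE, limma adjusted p = 0.0303).

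Of the 37 genes that fell, 22 were on none of the 38 lists, so names picked after the values were seen fill in the picture. BOP2 had the largest difference, -2.19 ± 0.37 (SE, limma adjusted p = 0.0427), from 5.26 ± 0.28 log2 RPM (SD, n = 3) to 3.08 ± 0.82, with a 0 min level of 3.07. ZTA1, a quinone reductase, went from 6.41 ± 0.04 to 5.05 ± 0.11 log2 RPM (SD, n = 3). GCY1, an aldo-keto reductase of glycerol metabolism, fell by 1.30 ± 0.19, FMP43, a subunit of the mitochondrial pyruvate carrier, by 1.39 ± 0.20, and NCE103, carbonic anhydrase, by 1.2 ± 0.22 (SE). BOP2 and NCE103 did not pass without the 120 min library (limma adjusted p = 0.0522 and 0.0692). ECM29, which holds the proteasome together, fell by 1.13 ± 0.16 (SE, limma adjusted p = 0.0258).

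The proteasome genes lay lower late by small and even amounts. Of 33 subunit and regulator genes 0 passed in limma. An unadjusted p under 0.05 with a lower level was found in 23, against 683 of 5298 genes. A lower late mean was found in 33 of 33, against 3139 of 5298 genes. In 29 the late libraries all lay below the early ones, against 18.5% of all genes. Voom weights called 0 of them. Their median difference was -0.42 log2, and -0.46 without the 120 min library. At 30-60 min 33 of 33 had been above 0 min, by a median of 0.43, and 24 of 33 (72.7%) were already within 0.5 of it, against 73.7% of all genes tested. At 105-135 min 33 of 33 were within 0.5 of 0 min, against 90.3% of all genes. RPN4, the transcription factor of proteasome genes, went from 6.4 ± 0.15 log2 RPM (SD, n = 3) to 5.54 ± 0.47 (log2 difference -0.85 ± 0.24, SE, limma adjusted p = 0.11).

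**Figure D2:**
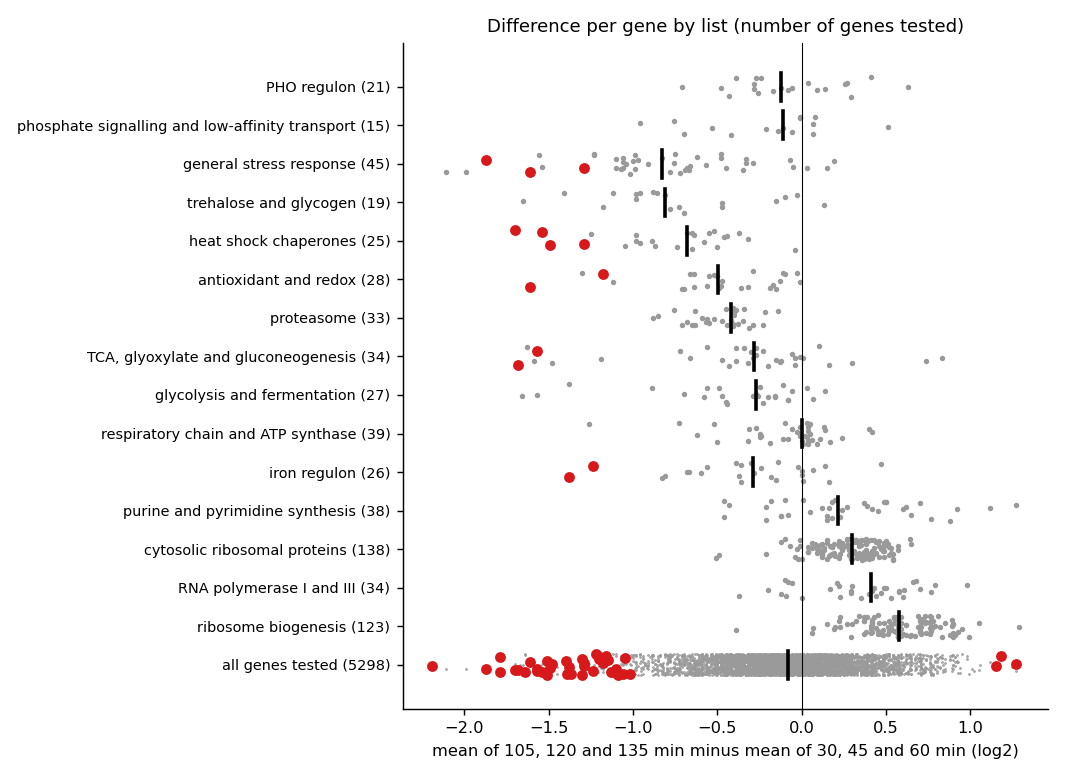
Late minus early difference of each gene (x axis, log2) for 15 gene lists and all genes tested (rows, with the number of genes), with called genes in red and the list median as a black bar. The bars of the stress, storage carbohydrate and chaperone lists lie between -0.83 and -0.68, that of ribosome biogenesis at 0.58 and that of the PHO regulon at -0.12.

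Ribosome-building genes lay in the opposite direction by modest amounts, and 0 genes passed in limma. Of 123 ribosome biogenesis genes 122 had a higher late mean, against 2159 of 5298 genes. In 74 the late libraries all lay above the early ones (9.63% of all genes did). In 86 the unadjusted p was under 0.05 with a higher level, against 392 of 5298 genes. Voom weights called 2 of the list higher, and library quality weights 8, against 11 and 26 of all genes. The median difference was 0.58 log2, and 0.48 without the 120 min library. At 30-60 min 14 of the 123 (11.4%) had been within 0.5 of the 0 min library, and at 105-135 min 117 (95.1%) were, while over all genes the share went from 73.7% to 90.3%. NSR1, the nucleolin of yeast, which binds nuclear localisation signals and pre-rRNA, was at 8.83 log2 RPM at 0 min. It was at 7.74, 7.15 and 7.60 early and at 8.66, 9.14 and 7.86 late. The sides did not overlap, but the 135 min library was only just above the early side (log2 difference 1.05 ± 0.31, SE, limma adjusted p = 0.121). ERB1, a factor of large subunit assembly, was at 5.62, 5.29 and 5.86 log2 RPM early and at 6.71, 6.83 and 5.98 late, from 6.97 at 0 min, with the same shape (log2 difference 0.91 ± 0.25, SE, limma adjusted p = 0.11). DBP2, an RNA helicase, had the largest difference of the list, 1.29 ± 0.37 (SE, limma adjusted p = 0.114), and its late values of 8.25, 9.13 and 7.40 log2 RPM spread over more than 1 log2 unit.

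The machinery around the ribosome followed in graded fashion. RNA polymerase I and III genes had a median difference of 0.41 log2 over 34 genes. The large subunit of polymerase I, RPA190, went from 7.48 ± 0.18 log2 RPM (SD, n = 3) to 8.25 ± 0.24, from a 0 min level of 8.46 (log2 difference 0.77 ± 0.18, SE, limma adjusted p = 0.0917). RPC19, which polymerases I and III share, had a log2 difference of 0.79 ± 0.23 (SE, limma adjusted p = 0.114). The 138 cytosolic ribosomal protein genes had a median difference of 0.30 log2, with 127 higher late, against 2159 of 5298 genes. In 62 the late libraries all lay above the early ones, against 9.63% of all genes. Reads of many may be split between paralogous copies, which was not tested. The tRNA genes of synthesis and modification (40) had a median difference of 0.25, and translation factors (38) one of 0.10. In these 4 lists 0 genes passed in limma. At an unadjusted p under 0.05 and a higher level there were 14, 36, 10 and 4, and voom weights called 1, 0, 0 and 0. Over all 5298 genes 392 had such a p with a higher level, and voom weights called 11 higher. Purine and pyrimidine genes, which supply nucleotides for RNA, had a median difference of 0.22 over 38 genes. AAH1, adenine deaminase, which is known to be shut off when growth slows, was at 8.06 log2 RPM at 0 min. It was at 6.51, 6.33 and 6.80 early and at 8.01, 8.28 and 7.16 late. The 135 min library was again the nearest to the early side (log2 difference 1.27 ± 0.28, SE, limma adjusted p = 0.0805). The uridine permease FUI1 had 1.12 ± 0.27 and the CTP synthase URA7 0.92 ± 0.21 (SE, limma adjusted p = 0.0917 and 0.0805).

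The 3 genes that rose belonged to different pathways. OLE1 makes the unsaturated fatty acids of yeast membranes. It was at 8.33 log2 RPM at 0 min, at 7.02, 6.82 and 7.27 early and at 8.08, 8.4 and 8.17 late. The late values surrounded or nearly reached the 0 min level. OLE1 (chromosome VII, 398628 to 400160) rose 2.27-fold (log2 difference 1.18 ± 0.18, SE, 95% interval 0.77 to 1.59, limma adjusted p = 0.0303) and was the 1 call among 32 ergosterol and fatty acid genes, whose median difference was -0.02. MTH1, which keeps hexose transporter genes repressed when glucose is scarce, was listed at 2.47 and 2.13 log2 RPM at 45 and 60 min and under the 10-read limit at 30 min. It was at 3.57, 3.49 and 3.63 late, against 2.86 at 0 min. The late values lay above all the others (log2 difference 1.27 ± 0.19, SE, limma adjusted p = 0.0382). MTH1 passed in 4 of 11 alternatives other than leaving out a library, and its difference was as low as 0.55. The uncharacterised YLR413W, named after its values were seen, was at 5.0, 5.23 and 5.4 log2 RPM early and at 6.54, 6.53 and 6.02 late, from 6.96 at 0 min (log2 difference 1.15 ± 0.20, SE, limma adjusted p = 0.0471). It did not pass without the 120 min library (limma adjusted p = 0.0773).

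Of the 21 PHO regulon genes tested 16 were displaced upwards early, and of these 12 held and 4 partly returned, by limits given below. Between the sides 0 of the 21 were called in limma. With only 40 of 5298 genes called in all, this alone says little. An unadjusted p under 0.05 was found in 1 of the 21, against 1075 of 5298 genes. With voom weights, quality weights or a spread from all 25 libraries 0 of the 21 were called. The median difference was -0.12 log2 (range -0.71 to 0.63), against -0.08 over all genes tested. Relative to 0 min the list's median was 1.30 at 30-60 min and 1.17 at 105-135 min. Against 0 min 6 of the 21 were called higher at 30-60 min, where 26 of 5295 genes were (0.491%) and 2 were called lower (0.0378%). At 105-135 min 4 genes in all were called higher than 0 min (0.0755%) and 1 lower (0.0189%), and the 4 were PHO84, SPL2, VTC1 and VTC3. These 2 comparisons share the 0 min library with each other, and each shares its other libraries with the comparison of the sides. Without the 30 or 60 min library no gene was called against 0 min at 105-135 min, and without the 45 or 135 min library 2 were.

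Phosphate uptake was represented by PHO84, the high-affinity proton-coupled transporter. It was at 6.93 log2 RPM at 0 min. It was at 9.11, 9.41 and 9.17 early and at 9.24, 9.35 and 9.53 late. All 6 values lay more than 2 log2 units above 0 min and the sides overlapped. PHO84 (chromosome XIII, 24037 to 25800) was 4.91-fold above 0 min early and 5.42-fold late, and the log2 difference between the sides was 0.14 ± 0.16 (SE, 95% interval -0.23 to 0.52, limma adjusted p = 0.669). It overlaps a non-coding gene, YNCM0001W, and whether reads were counted by strand is not given in the sources used here. PHO89, the sodium-coupled transporter, was at 6.19, 6.88 and 7.41 log2 RPM early and at 6.80, 6.61 and 7.34 late, from 5.53 at 0 min (log2 difference 0.09 ± 0.31, SE).

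SPL2, which holds back low-affinity uptake when phosphate is short, stood farthest above 0 min of all genes tested on the late side. It was at 5.93 log2 RPM at 0 min, at 8.63, 8.74 and 8.94 early and at 8.36, 9.37 and 9.36 late. The 105 min library was the lowest of the 6 and the other late ones the highest. SPL2 (chromosome VIII, 374654 to 375100) was 7.18-fold above 0 min early and 8.59-fold late, with a log2 difference between the sides of 0.26 ± 0.27 (SE, limma adjusted p = 0.639). The polyphosphate synthase subunits VTC3 and VTC1 also stayed above 0 min in all 6 libraries. VTC3 was at 7.87 log2 RPM at 0 min, at 10.23, 10.31 and 10.38 early and at 9.81, 10.23 and 10.39 late (log2 difference -0.17 ± 0.19, SE). VTC1 was at 8.70 log2 RPM at 0 min, at 10.36, 10.55 and 10.64 early and at 10.51, 11.14 and 10.78 late (log2 difference 0.29 ± 0.20, SE). In both the sides overlapped. VTC2 lay 1.12 above 0 min early and 1.06 late. VTC4, altered in this strain, lay 0.54 ± 0.40 above 0 min early and 0.15 ± 0.40 late (SE), and neither passed. PHO81, the kinase inhibitor that carries the signal, was at 7.82, 7.79 and 7.90 log2 RPM early and at 7.47, 7.84 and 7.87 late, from 6.17 at 0 min (log2 difference -0.12 ± 0.17, SE).

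The secreted acid phosphatases PHO5, PHO11 and PHO12 were 1.64, 1.83 and 1.97 log2 units above 0 min late and 1.23, 2.11 and 2.23 early. For these 3 genes 0.0% of values were whole reads, so their reads may be divided among near-identical copies, and the 3 values are uncertain. The constitutive phosphatase PHO3, whose gene is next to PHO5, had the one unadjusted p under 0.05 of the list and ran opposite: it was at 7.86 log2 RPM at 0 min, 7.10 ± 0.36 early (SD, n = 3) and 7.74 ± 0.36 late (log2 difference 0.63 ± 0.24, SE, limma adjusted p = 0.196). Its reads may be divided as well, with 16.7% of values whole. The vacuolar phosphatase PHO8 had the lowest difference, -0.71 ± 0.33 (SE, limma adjusted p = 0.271), which was -0.34 without the 120 min library. In phosphate signalling and low-affinity transport 0 of 15 genes passed, and 1 was called lower with voom weights, against 120 of 5298 genes. In total 4 of the 15 had an unadjusted p under 0.05, against 1075 of 5298, and the median difference of the list was -0.11. PHO2, the partner of Pho4, had the largest difference there, from 4.68 ± 0.08 log2 RPM (SD, n = 3) to 3.72 ± 0.50 (log2 difference -0.96 ± 0.24, SE, limma adjusted p = 0.0988). PHO4 had -0.21 ± 0.25, and the kinase and cyclin genes PHO85 and PHO80 had -0.42 ± 0.17 and -0.53 ± 0.35 (SE). PHO90, a low-affinity carrier, had 0.51 ± 0.22 (SE).

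**Figure D3:**
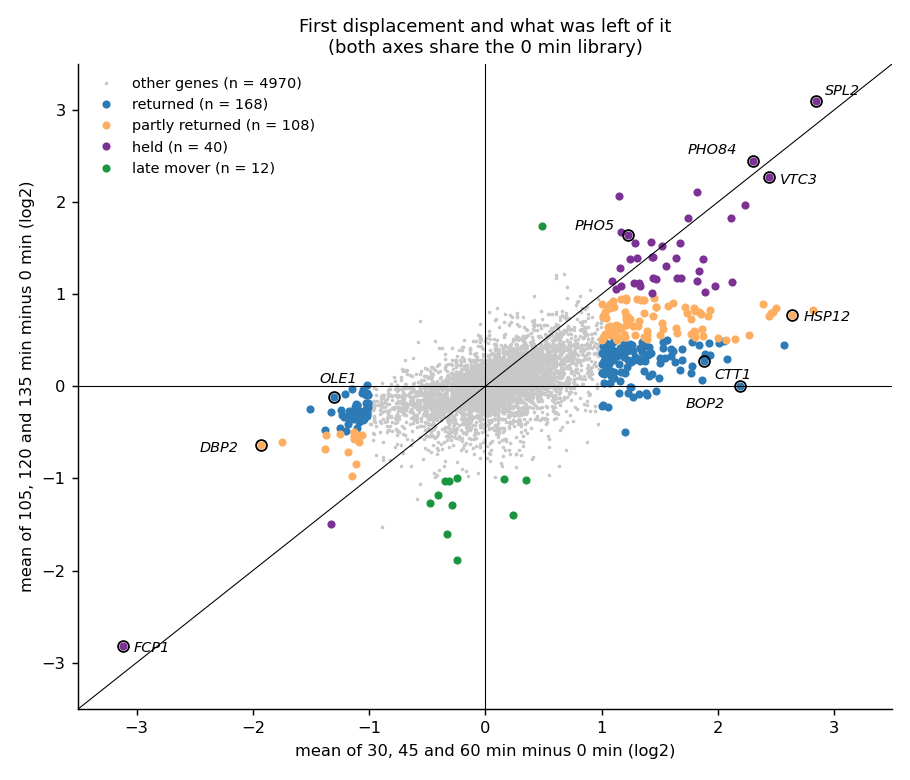
Distance from the 0 min library at 105-135 min (y axis, log2) against that at 30-60 min (x axis, log2) for each gene, coloured by class, with points on the diagonal keeping their first displacement and points on the horizontal line back at 0 min. Both axes share the 0 min library, SPL2, PHO84 and VTC3 lie on the diagonal at the upper right, and CTT1 and BOP2 lie at or near the horizontal line.

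To count returns and holds over all genes, genes at least 1 log2 unit from 0 min at 30-60 min were called displaced, and then returned if their late mean was within 0.5 of 0 min, held if it was still at least 1 away on the same side, and partly returned in between. These classes use means with no test, and the early libraries that pick a gene also set its distance. Of 251 genes displaced upwards 119 (47.4%) had returned, 94 (37.5%) had partly returned and 38 (15.1%) had held. Of 65 displaced downwards 49 (75.4%) had returned, 14 (21.5%) partly and 2 (3.08%) had held. None overshot by 1 log2 unit on the other side. The median distance of the genes displaced upwards went from 1.30 to 0.52 log2 and of those displaced downwards from -1.11 to -0.32. When the 15 min library, which is on neither side, picked the genes instead, 138 were displaced upwards, of which 60 had returned and 24 had held, and 41 downwards, of which 28 had returned and 2 had held. Without the 120 min library 77 had returned and 54 had held of the 251, and 43 had returned and 3 had held of the 65. The limits fall within a continuous spread: 28 genes lay within 0.1 inside the limit for returned and 30 within 0.1 outside, and 6 and 8 for held.

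The general stress list had 33 genes displaced upwards, of which 17 had returned, 13 partly and 3 had held (MOH1, HOR7 and SOL4). The chaperone list had 9, of which 8 had returned and 0 had held. The storage carbohydrate list had 11, of which 5 had returned and 0 had held. The ribosome biogenesis list had 24 displaced downwards, of which 19 had returned and 5 partly. The PHO regulon had 16 displaced upwards, of which 0 had returned, 4 partly (DDP1, PHM8, PHO8 and PHO86) and 12 had held.

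Among the 38 genes that held, 17 had a 0 min value below 3.25 log2 RPM, the highest listing limit of the 6 libraries. In a library whose listing limit lies above its 0 min value, such a gene appears only when it is raised. The distance of these 17 from 0 min is therefore uncertain, and the part of the limit in it was not tested. Of the 21 that remain 12 are PHO regulon genes. The other 9 include genes that fell part of the way, such as HOR7, a small hyperosmolarity-responsive protein, which stood 1.82 above 0 min early and 1.14 late, and SOL4, a lactonase of the pentose phosphate pathway, with 2.12 and 1.13. SNZ1, of vitamin B6 synthesis, had 1.89 and 1.02. PIC2, a mitochondrial carrier of phosphate and copper, was at 3.52 log2 RPM at 0 min, at 5.06, 5.55 and 5.54 early and at 4.80, 4.38 and 5.52 late. ARO9, an aminotransferase of aromatic amino acid breakdown, was at 4.19 log2 RPM at 0 min, at 5.58, 5.64 and 5.67 early and at 5.14, 5.30 and 5.66 late (log2 difference -0.26 ± 0.18, SE). ARO9 is the divergent neighbour of SPL2 with 608 bases between the coding starts. Over all 251 genes displaced upwards 63 had such a low 0 min value, and 98 of the other 188 had returned.

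The 2 genes that held below 0 min were FCP1 and FRE1. FCP1, a phosphatase of RNA polymerase II, was at 9.83 log2 RPM at 0 min and between 6.61 and 7.31 in all 6 other libraries, and was called lower on both sides (log2 -3.12 ± 0.28 and -2.82 ± 0.28, SE, limma adjusted p = 0.0108 and 0.0125). Its 15 min value was 6.81, so the high value is that of the 0 min library, and only 20% of its values were whole reads. FRE1, a reductase for iron and copper uptake, was at 6.21 log2 RPM at 0 min, at 5.33, 4.5 and 4.79 early and at 5.06, 4.93 and 4.18 late. A further 12 genes were near 0 min early and at least 1 away late. These rest largely on the 120 min library, since 2 of the 12 met the same limits without it. YBT1 was at 6.42 and 6.06 log2 RPM at 105 and 135 min but at 1.23 at 120 min, and THG1 was at 5.97 and 6.23 but at 3.0. The 2 were RTR1 and AAD14, named after their values were seen, which lay 1.77 above and -1.08 from 0 min without that library. Both are uncertain. The 0 min value of RTR1, 2.15 log2 RPM, is below the 135 min listing limit of 3.25, as in the low genes that held. The late level of AAD14 without 120 min is below this limit too, so it rests on the 105 min library alone. Not all values of AAD14 were whole reads. The siderophore transporter SIT1 missed the limit by little: it was at 6.69, 6.57 and 6.70 log2 RPM late, tightly together, against 7.69 at 0 min, and its distance from 0 min was -1.03 with the 120 min library and -0.99 without.

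**Figure D4:**
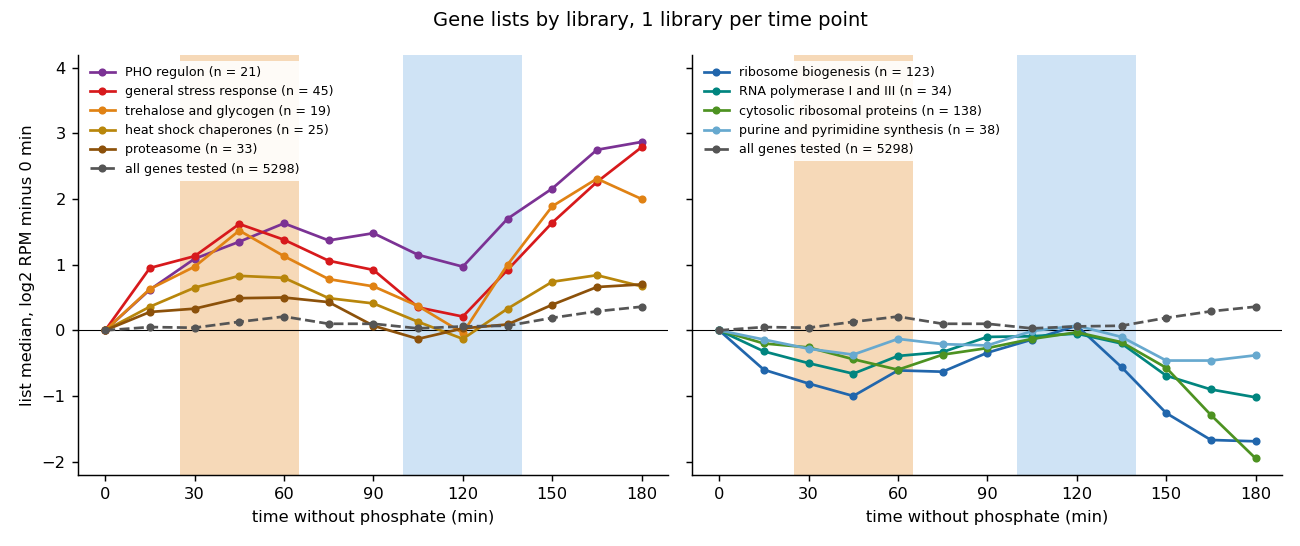
Median log2 RPM of each gene list minus the 0 min library (y axis) against time without phosphate (x axis, min), 1 library per time point, with the early side in orange and the late side in blue. The general stress, trehalose and chaperone medians reach 1.62, 1.52 and 0.83 at 45 min, are at 0.21, -0.04 and -0.13 at 120 min and rise again from 135 min, ribosome biogenesis mirrors them, and the PHO regulon stays at or above 0.97 from 30 min on.

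The late side was not flat, and 135 min already differed from 105 and 120 min. The median of the general stress list was 1.13, 1.62 and 1.38 log2 above 0 min at 30, 45 and 60 min, then 1.06 and 0.92 at 75 and 90 min. It was 0.35, 0.21 and 0.92 at 105, 120 and 135 min, and 1.64 at 150 min. The late side is thus the low point between the first response and a later rise. Ribosome biogenesis ran the other way, with medians of -0.14, 0.07 and -0.56 at 105, 120 and 135 min and -1.26 at 150 min. At 150 min 43 of the 45 stress genes were above all 3 late libraries, as were 41.1% of all genes, and 118 of the 123 ribosome biogenesis genes were below all 3, as were 21.6% of all genes. The PHO regulon had medians of 1.15, 0.97 and 1.70 on the late side and 2.16 at 150 min. Of the 37 genes that fell, 135 min was the highest late library in 24 and 120 min the lowest in 26. In 31 of the 33 listed at 90 min that library lay between the late mean and the early mean. It could still lie within the range of the late libraries, as in BTN2 (5.28 at 90 min against 5.30, 4.91 and 5.45). At 150 min 36 of the 37 were above their late mean and 17 were above the lowest early library. The 37 were picked for high early and low late values, so these counts are partly set by that choice.

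The promoters of these groups were searched for 5 elements over the 500 bases upstream of the annotated start, on both strands. Of 5157 genes tested with such a stretch, 34.6% held the STRE core AGGGG, and of the 36 genes that fell 77.8% did. Of the 116 genes that returned from above 77.6% held it. The group that held is counted here with its 17 genes of low 0 min value, and of its 32 promoters 37.5% held the core, as did 55.0% of the 20 outside the PHO list. A Pho4 box, CACGTG or CACGTT, was found in 21.3% of all genes, 19.0% of those that returned from above, 56.2% of those that held and 85.7% of the 21 PHO regulon genes. Among the 20 that held outside the PHO list it was found in 30.0%. The PAC element GATGAG was in 28.2% of all genes, 85.7% of the 49 that returned from below and 90.2% of the 123 ribosome biogenesis genes. The RRPE element AAAATTTT was in 13.5%, 65.3% and 82.9% of the same 3 groups. The paired Hsf1 element GAANNTTC was in 19.3% of all genes and 19.4% of those that fell. The groups overlap, since 23 of the 37 genes that fell are among the 119 that returned from above. Likewise 19 of the 49 genes that returned from below are on the ribosome biogenesis list. A match is a run of letters and does not show that a factor binds there.

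**Figure D5:**
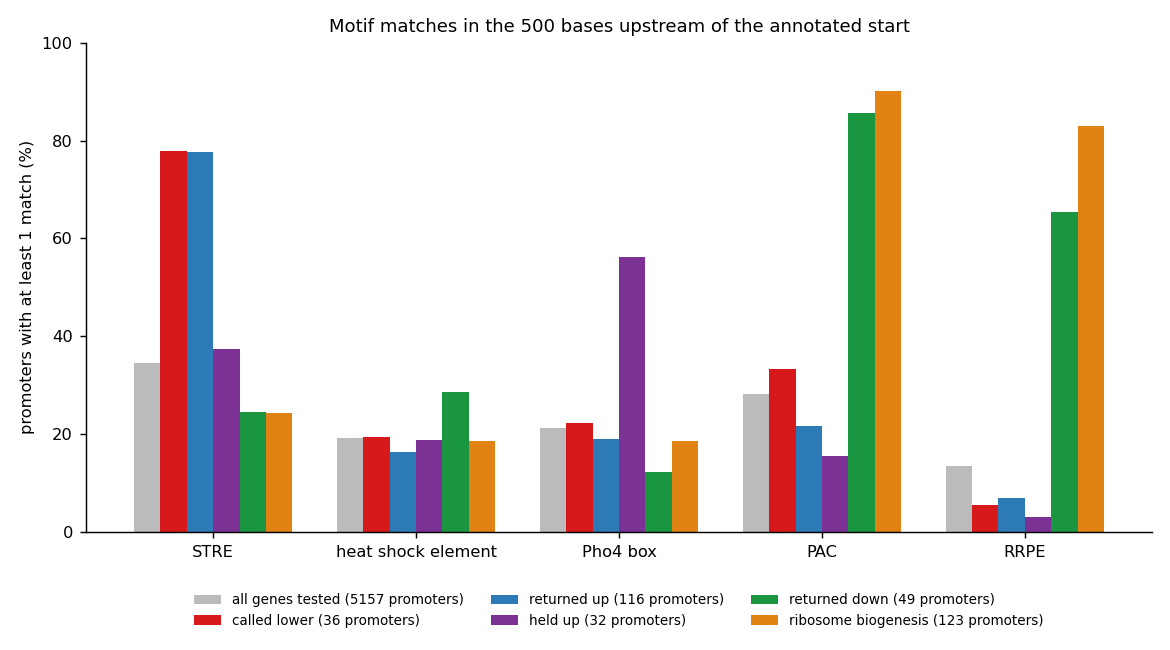
Share of promoters with at least 1 match (y axis, %) for 5 elements (x axis) in 6 groups of genes, from the 500 bases upstream of the annotated start. STRE stands out in the genes that fell or returned from above (77.8% and 77.6% against 34.6% of all), Pho4 boxes in those that held (56.2% against 21.3%) and PAC in those that returned from below (85.7% against 28.2%).

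Amino acid synthesis (64 genes) had a median difference of -0.01 log2, phospholipid synthesis (22) -0.05, histones (10) 0.02, G1/S genes (41) -0.13, G2/M genes (25) 0.02, pheromone response (24) 0.05 and mitochondrial ribosomal proteins (71) -0.12. In each of these 7 lists 0 genes were called in limma. At an unadjusted p under 0.05 they held 13, 3, 1, 3, 4, 2 and 5 genes, and voom weights called 1 gene, in phospholipid synthesis. Over all 5298 genes 1075 had such a p, and voom weights called 131, of which 120 were lower. The same counts over all genes apply to the lists that follow. Autophagy (27 genes) had a median difference of -0.33 and genes under nitrogen catabolite repression (31) one of -0.18, with 0 called in each in limma, 10 and 6 at an unadjusted p under 0.05, and 2 and 2 called lower with voom weights. The zinc regulon (16 genes) had a median difference of -0.01, vacuolar proteolysis and V-ATPase genes (24) -0.17, M/G1 genes (31) 0.01 and transcription and chromatin genes (29) 0.01, again with 0 called in limma, 5, 7, 1 and 3 at an unadjusted p under 0.05 and 0, 2, 0 and 0 called lower with voom weights. The signs of the medians for amino acid and phospholipid synthesis, histones, G2/M, the zinc regulon, M/G1 and transcription and chromatin each changed under at least 1 alternative, so they show no direction. The hexose transporter list (14) had a median difference of 0.09 with MTH1 its 1 call, and the pentose phosphate list (12) one of -0.56 with SOL1 its 1 call.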

How the data were processed

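The 25 libraries were prepared as total RNA, turned into cDNA and run on an Illumina sequencer, per the labels' protocols, and Bowtie and build R64 are named in the submitters' processing notes. The mapping settings, counter, annotation and strand use are not given in the sources used here. What the authors deposited is 1 table of log2 values. Their antilogs sum to 1000000 in each library, which makes them log2 RPM, and low values are whole multiples of 1 step with a minimum of 10 reads. The series' design text speaks of scaling to the first time point, which these values do not show. Depth was recovered from this step, and 94.9 to 97.5% of values under 200 reads came within 0.02 of a whole number. Of 6701 rows, 51 without a name and 2 with a shared name were dropped. Symbols of 5164 of the 5298 genes matched RefSeq's R64 annotation, the source of coordinates (counted from 1) and promoters.

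Group means of the 7 libraries were fitted with limma 3.58.1 in R 4.3.3, leaving missing values out (4.721 prior and 4 residual degrees of freedom, median residual SD 0.233). The lone 0 min sample took its spread from the rest. The fit was tested on simulated data. The members and gene lists were chosen with earlier results of these data known. Named genes were the 12 largest called rises and falls, all PHO regulon genes, up to 4 called or else 2 leading members of each list and up to 6 per class, and further names were chosen after values were seen. Intervals take no account of PCR duplicates. Alternatives changed scaling, filter, pseudocount, spread, libraries and call rule.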

Additional observations from a re-analysis of the deposited data

How the results depend on the processing

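No paired analysis was possible because each library is a separate time point and the labels give no replicate numbers. The 40 called genes kept their sign under every alternative run, which is no independent test. Their sides do not overlap, so leaving out a library could not reverse a sign. For the other alternatives, the same libraries had picked the genes for a large difference. Where no single library was left out, 39 passed at least as often as not, and MTH1 did not. Uncalled genes changed sign under some alternatives (ADA2, FRE1, GDE1, KCS1, PHM6, PHO81, PHO89, SPL2, STE3, THG1, VTC2 and YBT1), as did list medians near 0, those of the cell wall and of ergosterol and fatty acids included. Against the 40 calls (3 higher, 37 lower) between the sides, 28 for 30-60 min against 0 min and 5 for 105-135 min against 0 min, median centring gave 5 higher, and 18 at 30-60 min. Quantile normalization gave 24 calls (22 lower) and 14. Removing the filter and setting missing values to the lowest listed, both together, gave 0 (0 higher, 0 lower; 993 at an unadjusted p under 0.05), 7 and 2. A mean of at least 5 log2 RPM gave 66 (6, 60) and 98, and log2(RPM + 10) gave 90 for 30-60 min. A spread from all 25 libraries gave 94 (9, 85), 105 and 9, and from 24 without 120 min, chosen after seeing the data, 23 (1, 22), 118 and 9. An intensity trend gave 84 (7, 77) and 114, library quality weights 135 (26, 109) and 280, voom weights 131 (11, 120) and 182. Sides of 30-75 and 90-135 min gave 0 (0, 0; 754 at an unadjusted p under 0.05), 16 and 3. No fold threshold gave 5 higher, as did one of 0.5. Leaving out each library gave 0 to 181 calls (0 to 43 higher, 0 to 138 lower), 0 to 160 and 0 to 6.

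Against 316 displaced, 168 returned, 40 held and 12 late genes, quantile normalization left 23 held, complete values 7 late, and the joint change of filter and missing values 121 held. The mean of 5 gave 208 displaced, 21 held and 5 late; log2(RPM + 10) gave 159, 99 returned, 15 held and 2 late; wider sides gave 96 returned and 4 late; a displacement of 1.5 gave 84, 28, 20 and 3. Selection at 15 min gave 179 displaced, 88 returned and 26 held. Leaving out each library gave 7 to 43 late genes. Causes of these shifts were not tested. Depth limits genes near 10 reads, and each side has 3 libraries along a changing course.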
